A study of Mus musculus with 10 samples.

Results

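The window within 5 Mb of Bpifb1 on mouse chromosome 2 is a stretch of gene-rich DNA around a gene that encodes a secreted airway protein of the BPI fold family. Its members were the protein-coding genes of the deposited count table whose GENCODE M21 start, taken as the lower coordinate of the gene, lay between 149190818 and 159190818 of chromosome 2 in GRCm38. Genes of the BPI fold family whose symbols begin with Bpif were left out, as were 2 more genes named in the rule. This gave 177 of the 47333 genes of the table, 88 on the lower-coordinate side of Bpifb1 and 89 on the other. Apart from these exclusions by name the rule uses position and gene type only. It was set, exclusions included, with earlier results of these data known. All mice were C57BL/6J, 12 weeks old and untreated, and RNA came from the right middle lobe of the lung. The KO group held 5 mice labelled as knockouts of Bpifb1 (1 male, 4 females) and the WT group 5 wild-type mice (2 males, 3 females). How the KO allele was made, whether the WT mice were littermates and how far the KO line was backcrossed are not given in the sources used here.

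Genes that lie side by side can share enhancers and domains of open chromatin, so a deletion can alter the expression of its neighbours as well as that of the deleted gene. A targeted allele is also inherited together with the DNA around it. When the targeted cells come from another mouse strain, variants of that strain near the deleted gene stay linked to it through many crosses, and can carry differences of their own in the genes nearby. Near Bpifb1 the chromosome carries other BPI fold genes. Farther out, to either side, lie genes of general cell function, clusters of beta-defensin and zinc finger genes, and the imprinted gene Nnat. Bpi, also of the BPI fold family, lies 4.07 Mb from Bpifb1 and is a member.

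Library totals ran from 21357424 to 28321294 estimated counts per mouse. The floor of 3 counts, taken as the smallest readable signal, equalled 0.106 to 0.140 counts per 1000000 counts of the library (CPM). Floors and intervals of this kind cover counting error only. Bpifb1 itself measured 0.433, 0.924, 0.232, 0.217 and 1.26 CPM in KO replicates 1 to 5 and 78.7, 41.2, 79.6, 28.1 and 71.1 CPM in WT replicates 1 to 5, so each library matched its genotype label. Its log2 fold change was -6.55 ± 0.55 (SE; adjusted p 0.0275, edgeR). KO replicate 5, labelled female, had 1.78 CPM of Xist where the other 6 labelled females had 274 to 407 CPM and the 3 labelled males 1.29 to 1.73 CPM. Its label was kept wherever sex was used, as a covariate or in a comparison. Whole-lung tissue is a mixture of cells, and fewer cells of a type cannot be told apart from less RNA per cell. Of 16 lists of lung cell markers with 80 genes, the summed CPM of all 16 overlapped between the genotypes. None of those genes passed the test (0 of 80 at an adjusted p under 0.05 by edgeR), and 9 had an unadjusted p under 0.05. Of all tested genes 0.0222% and 17.0% did so, and these counts do not show that cell content was equal. The smooth muscle list, for example, summed to 731 to 917 CPM in KO and 732 to 1022 CPM in WT mice, and the T cell list to 46.9 to 60.4 and 47.3 to 64.0 CPM.

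The comparison of KO with WT mice asked whether the neighbours of Bpifb1 differ in expression along with it. Of the 177 members, 127 had enough counts to be tested. By the quasi-likelihood test of edgeR none reached an adjusted p under 0.05, where 0.0222% of all 18024 tested genes did. The smallest adjusted p among the members was 0.121, that of Snhg11. At an unadjusted p under 0.05 stood 20 members (15.7%, against 17.0% of all tested genes), 13 of them lower in KO (8.04% of all tested genes) and 7 higher (8.92%). The DESeq2 Wald test called 2 members, Snhg11 and Nol4l, both higher in KO, where it called 1.92% of all tested genes, and limma-voom called 0. The share of members with nominally small p values was thus close to that of the whole table.

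Differences among the members were small. The median absolute log2 fold change was 0.0963, against 0.101 over all tested genes, and 120 of the 127 members lay within 0.3 of 0, which is a factor of 1.23. The 2 members beyond 0.5 were both weakly expressed. Necab3 measured 0.688 ± 0.0998 CPM in KO against 0.952 ± 0.236 in WT mice (mean ± SD, n = 5 per genotype), with a log2 fold change of -0.52 ± 0.22 (SE; adjusted p 0.262, edgeR). The predicted gene Gm14226 measured 0.561 ± 0.146 CPM in KO against 0.349 ± 0.125 in WT mice (mean ± SD, n = 5 per genotype), with a log2 fold change of 0.67 ± 0.32 (SE; adjusted p 0.303, edgeR). The direction was uneven: 81 of 127 members (63.8%) had a log2 fold change below 0, where 50.7% of all tested genes did, and the median over the members was -0.046 against -0.003. This excess was present on both sides of Bpifb1, with 36 of 53 members below 0 on the lower-coordinate side and 45 of 74 on the other. It was not tested, since genes of a window are not independent replicates.

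**Figure D1:**
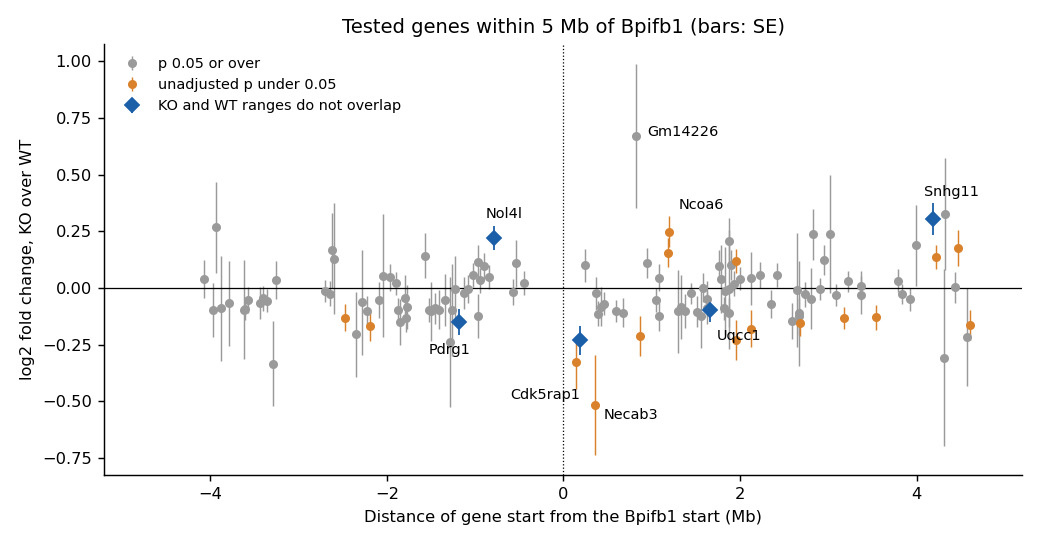
Log2 fold change of KO over WT for the 127 tested members (vertical axis, bars show the SE) by the distance of the gene start from the Bpifb1 start in Mb (horizontal axis). Grey points have an unadjusted p of 0.05 or more, orange points one under 0.05, and blue diamonds are the 5 members whose KO and WT ranges did not overlap, and 120 members lie within 0.3 of 0. Bpifb1 and Bpifb5, with log2 fold changes of -6.55 and -2.59, are not members and are not drawn.

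In 5 of the 127 tested members (3.94%) the KO and WT values were fully separate, against 1.88% of all tested genes. In 2 of them, Snhg11 and Nol4l, the KO values were higher (0.960% of all tested genes were so), and in 3, among them Pdrg1 and Uqcc1, they were lower (0.921% of all tested genes). None of the 5 passed the adjusted test of edgeR.

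Snhg11 (ENSMUSG00000044349; chr2:158375638-158386145, plus strand) is the host gene of small nucleolar RNAs and is annotated as protein coding in the release used. It measured 31, 35.9, 30.8, 29.8 and 34.1 CPM in KO replicates 1 to 5 and 24.6, 27.9, 25.7, 28.6 and 24.3 CPM in WT replicates 1 to 5. All KO values lay above all WT values, with a log2 fold change of 0.30 ± 0.07 (SE; adjusted p 0.121, edgeR). The gene starts 4.18 Mb from the Bpifb1 start, near the outer end of the window. The member with the smallest p was thus among those farthest from Bpifb1. Small RNA genes lie inside it on the same strand.

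Nol4l (ENSMUSG00000061411; chr2:153407462-153529971, minus strand), which encodes a protein related to the nucleolar protein NOL4, measured 32.8, 29.3, 30.3, 29.2 and 30.5 CPM in KO replicates 1 to 5 and 24.6, 26.7, 27.8, 27.9 and 25.3 CPM in WT replicates 1 to 5. The lowest KO value was above the highest WT value. Its log2 fold change was 0.22 ± 0.05 (SE; adjusted p 0.128, edgeR), and 0.14 in a fit with an offset for exon length. Its start lies 783 kb from that of Bpifb1 on the lower-coordinate side, and other genes overlap it on the opposite strand.

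Pdrg1 (ENSMUSG00000027472; chr2:153008890-153015427, minus strand), a gene named for its regulation by p53 and DNA damage, measured 40.7, 42.7, 42.5, 41.1 and 38.2 CPM in KO replicates 1 to 5 and 46.3, 52, 45, 43.8 and 43.4 CPM in WT replicates 1 to 5. Its log2 fold change was -0.15 ± 0.06 (SE; adjusted p 0.224, edgeR), and -0.09 with the offset for exon length. Uqcc1 (ENSMUSG00000005882; chr2:155846894-155930310, minus strand), an assembly factor of the respiratory chain complex III, measured 28.5, 27.6, 27.3, 28.2 and 26.2 CPM in KO replicates 1 to 5 and 29.5, 30, 28.6, 29.6 and 30.1 CPM in WT replicates 1 to 5. The log2 fold change of Uqcc1 was -0.10 ± 0.05 (SE; adjusted p 0.316, edgeR), the smallest difference of the 5. In both genes the KO and WT ranges lay next to each other, less than 1 CPM apart.

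**Figure D2:**
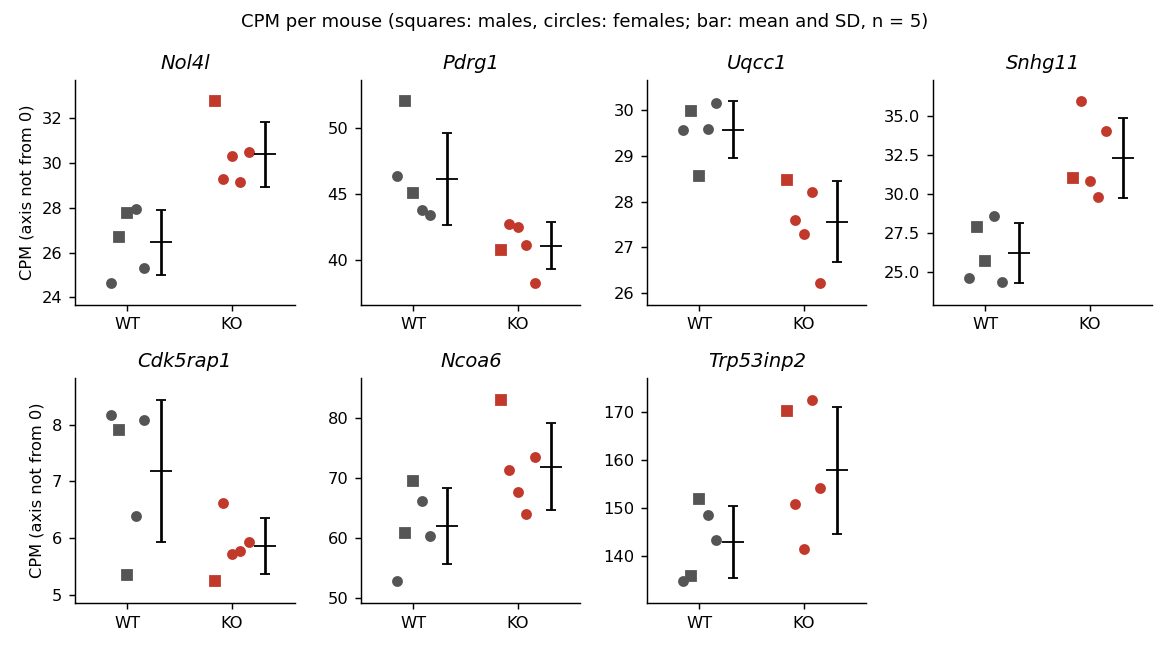
CPM of each mouse (vertical axis, one scale per gene, not from 0) in WT (grey) and KO (red) mice for 4 of the members whose ranges did not overlap (Nol4l, Pdrg1, Uqcc1 and Snhg11) and for Cdk5rap1, Ncoa6 and Trp53inp2. Squares are males and circles females, and bars give the mean and SD (n = 5 each). In the first 4 genes the colours separate, and in the other 3 they overlap.

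The sequences in front of these 4 genes are shown because the genes stood apart between the genotypes in opposite directions. RefSeq promoters (GRCm38.p6, 250 bases before to 50 after the transcription start, on the gene's strand, 5′ to 3′) were found for 136 of the 177 members, these 4 included. Capitals mark matches on either strand to common promoter motifs. The motif searched for binding of the basal machinery was TATAAA, and the one for nuclear factor Y was CCAAT. The motif for binding of Sp proteins, called the GC box here, was GGGCGG, and the E-box of helix-loop-helix proteins was CACGTG. None of these 4 strings contains another.

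Pdrg1 (chr2:153015334-153015633, minus strand): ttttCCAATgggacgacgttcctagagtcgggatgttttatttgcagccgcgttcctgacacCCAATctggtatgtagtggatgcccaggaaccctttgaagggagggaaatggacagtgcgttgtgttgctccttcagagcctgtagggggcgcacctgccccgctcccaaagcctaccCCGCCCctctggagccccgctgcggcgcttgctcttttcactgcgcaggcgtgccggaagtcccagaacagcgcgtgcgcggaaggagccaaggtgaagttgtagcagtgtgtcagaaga

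Nol4l (chr2:153529922-153530221, minus strand): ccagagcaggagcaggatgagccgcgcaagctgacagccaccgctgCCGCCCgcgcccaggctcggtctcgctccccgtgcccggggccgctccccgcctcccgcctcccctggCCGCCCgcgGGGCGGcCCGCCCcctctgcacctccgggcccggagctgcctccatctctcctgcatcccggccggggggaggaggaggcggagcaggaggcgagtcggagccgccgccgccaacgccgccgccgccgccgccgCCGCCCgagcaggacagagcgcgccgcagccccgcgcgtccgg

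Uqcc1 (chr2:155930261-155930560, minus strand): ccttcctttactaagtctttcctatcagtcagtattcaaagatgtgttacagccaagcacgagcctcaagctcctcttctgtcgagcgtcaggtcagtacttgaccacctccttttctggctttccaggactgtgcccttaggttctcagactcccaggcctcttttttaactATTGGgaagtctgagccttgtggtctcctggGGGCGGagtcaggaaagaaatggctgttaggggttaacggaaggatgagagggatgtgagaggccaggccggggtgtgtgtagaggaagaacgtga

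Snhg11 (chr2:158375463-158375762, plus strand): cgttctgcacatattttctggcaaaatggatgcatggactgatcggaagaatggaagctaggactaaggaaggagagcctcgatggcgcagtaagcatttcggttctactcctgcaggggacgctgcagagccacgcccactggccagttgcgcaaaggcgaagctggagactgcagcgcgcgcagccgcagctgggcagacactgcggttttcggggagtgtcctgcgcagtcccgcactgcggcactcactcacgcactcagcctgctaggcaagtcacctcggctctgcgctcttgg

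The Nol4l window held 5 GC boxes and 44 CpG dinucleotides, and that of Snhg11 none of these motifs and 21 CpG dinucleotides, though both genes had higher values in KO. Pdrg1 held 2 CCAAT boxes and 1 GC box with 19 CpG dinucleotides, and Uqcc1 held 1 of each with 7. Over all 32851 promoter windows of that length 37.4% held a CCAAT box, 35.7% a GC box, 13.6% a TATA box and 7.15% an E-box, and the median number of CpG dinucleotides was 7. A match is a string of letters and not a site shown to be used.

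The members next to the BPI fold cluster were described one by one. On the higher-coordinate side the first tested member was Cdk5rap1, which begins 94.5 kb after the end of Bpifb5. Bpifb5, a paralog of Bpifb1 that is no member, measured 0.997 ± 0.361 CPM in KO against 5.78 ± 0.991 in WT mice (mean ± SD, n = 5 per genotype), with a log2 fold change of -2.59 ± 0.20 (SE; adjusted p 0.000101, edgeR). Cdk5rap1 (ENSMUSG00000027487; chr2:154335380-154373010, minus strand) encodes an enzyme that modifies transfer RNAs. It measured 5.24, 6.62, 5.72, 5.77 and 5.93 CPM in KO replicates 1 to 5 and 8.17, 7.91, 5.34, 6.38 and 8.08 CPM in WT replicates 1 to 5. In 3 WT mice its values were above all KO values, while WT replicates 3 and 4 lay within the KO range, and the log2 difference was -0.33 ± 0.12 (SE; adjusted p 0.205, edgeR).

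Farther out lay the transcriptional corepressor gene Cbfa2t2, with a log2 fold change of 0.10 ± 0.07 (SE; adjusted p 0.494, edgeR), Necab3, and E2f1, which encodes a transcription factor of the cell cycle, with a log2 fold change of -0.02 ± 0.07 (SE; adjusted p 0.897, edgeR). Cbfa2t2 and E2f1 overlapped between the genotypes, at 29.6 to 33.3 CPM in KO against 25 to 33.4 CPM in WT mice for Cbfa2t2 and at 11.9 to 13.2 against 11.9 to 14.3 CPM for E2f1. Within 1 Mb on this side 10 of 13 tested members had a log2 fold change below 0, against 50.7% of all tested genes. An unadjusted p under 0.05 was found for 4, all 4 lower in KO, among them Cdk5rap1, Necab3 and Ahcy. Of all tested genes 17.0% had such a p, and 8.04% had it and were lower in KO. Ahcy, the enzyme that splits S-adenosylhomocysteine, measured 10.9, 10.2, 10.3, 10.2 and 11.5 CPM in KO replicates 1 to 5 and 10.2, 14.8, 12.5, 12 and 13.2 CPM in WT replicates 1 to 5. WT replicate 1 lay inside the KO range of Ahcy and the other 4 WT mice above it, with a log2 fold change of -0.21 ± 0.09 (SE; adjusted p 0.253, edgeR).

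On the lower-coordinate side the nearest tested member was Mapre1, whose end lies 418 kb before the Bpifb1 start. Mapre1 encodes a protein of growing microtubule ends and measured 129 ± 5.19 CPM in KO against 128 ± 7.31 in WT mice (mean ± SD, n = 5 per genotype), with a log2 fold change of 0.02 ± 0.05 (SE; adjusted p 0.870, edgeR). Then followed Dnmt3b, a DNA methyltransferase that sets new methylation marks, with 4.47 ± 0.373 CPM in KO against 4.09 ± 0.281 in WT mice (mean ± SD, n = 5 per genotype) and a log2 fold change of 0.11 ± 0.10 (SE; adjusted p 0.624, edgeR). Commd7 (-0.02 on the log2 scale, edgeR adjusted p 0.899) and the chromatin regulator gene Asxl1 (0.05, edgeR adjusted p 0.691) also overlapped between the genotypes. Of the 9 tested members within 1 Mb on this side 2 had a log2 fold change below 0, against 50.7% of all tested genes. Nol4l alone had an unadjusted p under 0.05, as 17.0% of all tested genes did. Sun5 and Efcab8, which lie between Mapre1 and Bpifb1, were at or near 0 counts and could not be tested.

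Read by distance, the shares did not fall steadily away from Bpifb1. Of the tested members on both sides, 5 of 22 within 1 Mb had an unadjusted p under 0.05 (22.7%), then 5 of 46 from 1 to 2 Mb (10.9%), 4 of 27 from 2 to 3 Mb (14.8%), 2 of 23 from 3 to 4 Mb (8.70%) and 4 of 9 from 4 to 5 Mb (44.4%). The outermost step holds few genes, 8 of the 9 on the higher-coordinate side, where all 4 of those counted lie. By side, 4 of 53 members had such a p on the lower-coordinate side (7.55%) and 16 of 74 on the other (21.6%). Of all tested genes 17.0% did. The median absolute log2 fold change in these steps was 0.109, 0.0959, 0.0713, 0.0662 and 0.176. Over the 127 members, Spearman's rho between distance and absolute log2 fold change was -0.004, given as a description because the points share the same 10 libraries. Of the 1060 tested protein-coding genes of chromosome 2 that are not members, 15.8% had an unadjusted p under 0.05. Their median absolute log2 fold change was 0.0923. They include Bpifb1, Bpifb5 and any other tested genes inside the window that were left out by name.

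**Figure D3:**
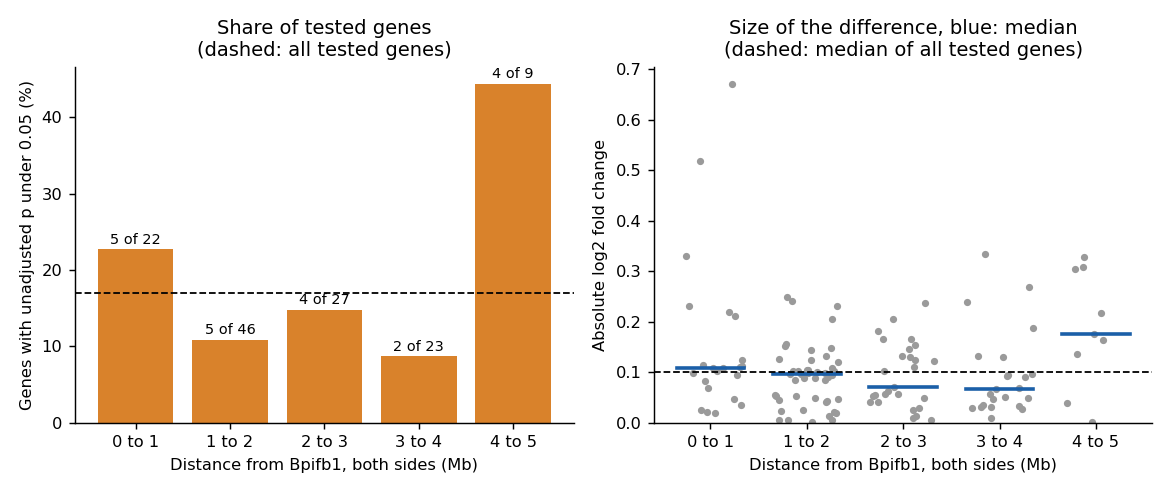
Left, percent of tested members with an unadjusted p under 0.05 for each step of 1 Mb from Bpifb1, both sides together, with the count above each bar; right, absolute log2 fold change of each member (points) and the median of each step (blue). Dashed lines give the value over all tested genes, 17.0% on the left and 0.101 on the right. The outermost step, 4 of 9 genes, stands highest on the left.

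The direction of a difference went with the exon bases of the gene, taken over all its annotated exons together. Among the members with an unadjusted p under 0.05, the 7 that were higher in KO had a median of 8844 exon bases and the 13 that were lower one of 2767. Over all 127 tested members the median was 3879 exon bases, and Spearman's rho between exon bases and log2 fold change was 0.53. The same relation held over 18011 tested genes with a known length (rho 0.37), where the genes with an unadjusted p under 0.05 had medians of 7849 exon bases when higher and 2400.5 when lower in KO. With an offset for exon length, chosen after seeing the data, rho became 0.08 over the members, and 12 members had an unadjusted p under 0.05 (9.45%, against 12.9% of all tested genes), 7 lower and 5 higher in KO. Of these 12, 8 were among the 20 counted without the offset. With that offset 82 of 127 members (64.6%) had a log2 fold change below 0, against 50.1% of all tested genes, with a median of -0.026. Of the 5 members with separate ranges 4 still had them, and Pdrg1 did not. With that offset 5 of 22 members within 1 Mb and 2 of 9 members from 4 to 5 Mb had an unadjusted p under 0.05. Of the 20 members with an unadjusted p under 0.05 without the offset, all 20 had the same sign with it, and 10 had a log2 fold change smaller by more than 1.5 times. For these 10 the value with the offset stands beside the first one where the gene is described.

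The members were then read by role, in 12 lists that cover 105 of them. In no list did a member pass the adjusted test, so the counts that follow are of unadjusted p values under 0.05, to be read against the 17.0% of all tested genes. Among 10 tested genes of RNA processing and translation 4 did so, 3 lower and 1 higher in KO, with a list median of -0.096. Apart from Cdk5rap1 the lower ones were Dhx35, an RNA helicase gene, at -0.16 ± 0.07 (SE; adjusted p 0.242, edgeR) on the log2 scale, and Ctnnbl1, a component of the spliceosome, at -0.13 ± 0.06 (SE; adjusted p 0.266, edgeR). Rbm39, a splicing factor gene, had the opposite sign, at 0.12 ± 0.05 (SE; adjusted p 0.272, edgeR). With the offset for exon length Ctnnbl1 was at -0.08 and Rbm39 at 0.07. The most abundant gene of this list per kb of exon was Raly, which encodes an RNA-binding protein of heterogeneous nuclear ribonucleoproteins. Raly measured 153 ± 6.34 CPM in KO against 164 ± 6.85 in WT mice (mean ± SD, n = 5 per genotype), with a log2 fold change of -0.10 ± 0.05 (SE; adjusted p 0.322, edgeR).

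Among the 12 tested transcription and chromatin regulators 1 had an unadjusted p under 0.05 and 8 had a log2 fold change above 0, with a list median of 0.04. That gene was Ncoa6 (ENSMUSG00000038369; chr2:155390656-155473894, minus strand), a coactivator of nuclear receptors. It measured 83, 71.3, 67.7, 64 and 73.5 CPM in KO replicates 1 to 5 and 52.8, 60.9, 69.5, 66.1 and 60.4 CPM in WT replicates 1 to 5. In 3 KO mice its values were above all WT values, and the log2 difference was 0.25 ± 0.07 (SE; adjusted p 0.145, edgeR), or 0.16 with the offset for exon length. Id1, an inhibitor of transcription factors of the helix-loop-helix class and the most abundant of the list per kb of exon, measured 79.4 ± 8.0 CPM in KO against 84.9 ± 3.85 in WT mice (mean ± SD, n = 5 per genotype), with a log2 fold change of -0.09 ± 0.07 (SE; adjusted p 0.522, edgeR).

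Ncoa6 ends 805 bases from the end of Trp53inp2, on opposite strands and facing each other. Trp53inp2 (ENSMUSG00000038375; chr2:155381059-155389850, plus strand), which encodes a protein of autophagy and transcription, measured 170.3, 151, 141, 173 and 154 CPM in KO replicates 1 to 5 and 135, 136, 152, 149 and 143 CPM in WT replicates 1 to 5. Both neighbours had a higher mean in KO, with a log2 fold change of 0.16 ± 0.06 (SE; adjusted p 0.239, edgeR) for Trp53inp2. It was the 1 gene with an unadjusted p under 0.05 among 7 tested genes of cell survival and stress, of which 5 had a log2 fold change below 0. Bcl2l1, which encodes the survival protein Bcl-xL, measured 109.8 ± 11 CPM in KO against 124 ± 24.1 in WT mice (mean ± SD, n = 5 per genotype), with a log2 fold change of -0.10 ± 0.09 (SE; adjusted p 0.594, edgeR).

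Among 14 tested genes of protein quality control and the endoplasmic reticulum 10 had a log2 fold change below 0, with a median of -0.050. Psmf1, an inhibitor of the proteasome, was the 1 gene with an unadjusted p under 0.05, at -0.13 ± 0.06 (SE; adjusted p 0.282, edgeR) on the log2 scale. Map1lc3a, the autophagosome protein LC3A, measured 111 ± 7.63 CPM in KO against 119 ± 11 in WT mice (mean ± SD, n = 5 per genotype), Chmp4b, a subunit of the membrane-cutting ESCRT-III complex, measured 179 ± 8.24 CPM in KO against 188 ± 6.41 in WT mice (mean ± SD, n = 5 per genotype), and Fkbp1a, a binding protein of immunosuppressants, measured 293 ± 14.1 CPM in KO against 300.3 ± 16.5 in WT mice (mean ± SD, n = 5 per genotype). The log2 fold changes of these 3 abundant genes were -0.13, -0.07 and -0.03, with edgeR adjusted p values of 0.337, 0.496 and 0.850. Their ranges overlapped between the genotypes.

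Of 9 tested metabolic enzymes 8 had a log2 fold change below 0, with a median of -0.066, and Ahcy alone had an unadjusted p under 0.05. Pygb, a glycogen phosphorylase and the most abundant of them per kb of exon, measured 122 ± 3.18 CPM in KO against 124 ± 9.99 in WT mice (mean ± SD, n = 5 per genotype), with a log2 fold change of -0.05 ± 0.06 (SE; adjusted p 0.712, edgeR). Of 6 tested genes of the cytoskeleton and contraction 1 had an unadjusted p under 0.05, lower in KO, and 4 had a log2 fold change below 0. Myl9, a regulatory light chain of smooth muscle myosin, measured 114 ± 9.93 CPM in KO against 123 ± 16.6 in WT mice (mean ± SD, n = 5 per genotype) with a log2 fold change of -0.15 ± 0.08 (SE; adjusted p 0.353, edgeR). In the same mice the smooth muscle marker list overlapped between genotypes, and its part in the Myl9 values was not tested.

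Of 7 tested signalling genes 6 had a log2 fold change above 0 and 2 an unadjusted p under 0.05, with a median of 0.06. Both had a higher mean in KO, and with the offset for exon length neither had an unadjusted p under 0.05. Ralgapb, a subunit of a GTPase-activating complex for Ral proteins, measured 117 ± 4.74 CPM in KO against 107 ± 7.89 in WT mice (mean ± SD, n = 5 per genotype), with a log2 fold change of 0.14 ± 0.06 (SE; adjusted p 0.240, edgeR), which was 0.01 with the offset. Ppp1r16b, a regulator of protein phosphatase 1 that is prominent in endothelium, measured 192 ± 9.92 CPM in KO against 173 ± 23.1 in WT mice (mean ± SD, n = 5 per genotype), with a log2 fold change of 0.18 ± 0.08 (SE; adjusted p 0.274, edgeR), which was 0.10 with the offset. The tyrosine kinase gene Src measured 96.2 ± 3.22 CPM in KO against 94.5 ± 2.93 in WT mice (mean ± SD, n = 5 per genotype), with a log2 fold change of 0.03 ± 0.05 (SE; adjusted p 0.779, edgeR). Ralgapb lies next to Snhg11 in the window.

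None of the 9 tested cell division genes had an unadjusted p under 0.05, with log2 fold changes from -0.33 (Gins1, a subunit of the replication helicase) to 0.12 (Rbl1, a relative of the retinoblastoma protein). Nor had any of the 8 genes of blood vessels and blood cells, of which 7 lay below 0. Rem1, a small GTPase gene, had the smallest p of those, with 9.51 ± 1.30 CPM in KO against 8.69 ± 0.766 in WT mice (mean ± SD, n = 5 per genotype) and a log2 fold change of 0.14 ± 0.10 (SE; adjusted p 0.481, edgeR). KO replicate 1 had 11.6 CPM of Rem1, and without it the log2 fold change was 0.00059. Tgm2, the tissue transglutaminase, measured 512 ± 17.8 CPM in KO against 531 ± 19.7 in WT mice (mean ± SD, n = 5 per genotype), with a log2 fold change of -0.05 ± 0.05 (SE; adjusted p 0.651, edgeR). Of the 4 tested zinc finger genes none had an unadjusted p under 0.05, with log2 fold changes of 0.04 for Zfp120, -0.10 for Zfp937, -0.07 for Zfp442 and -0.08 for Zfp341. The 1 tested cystatin, Cst7 of immune cells, measured 1.53 ± 0.476 CPM in KO against 1.58 ± 0.266 in WT mice (mean ± SD, n = 5 per genotype), with a log2 fold change of -0.10 ± 0.22 (SE; adjusted p 0.865, edgeR).

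**Figure D4:**
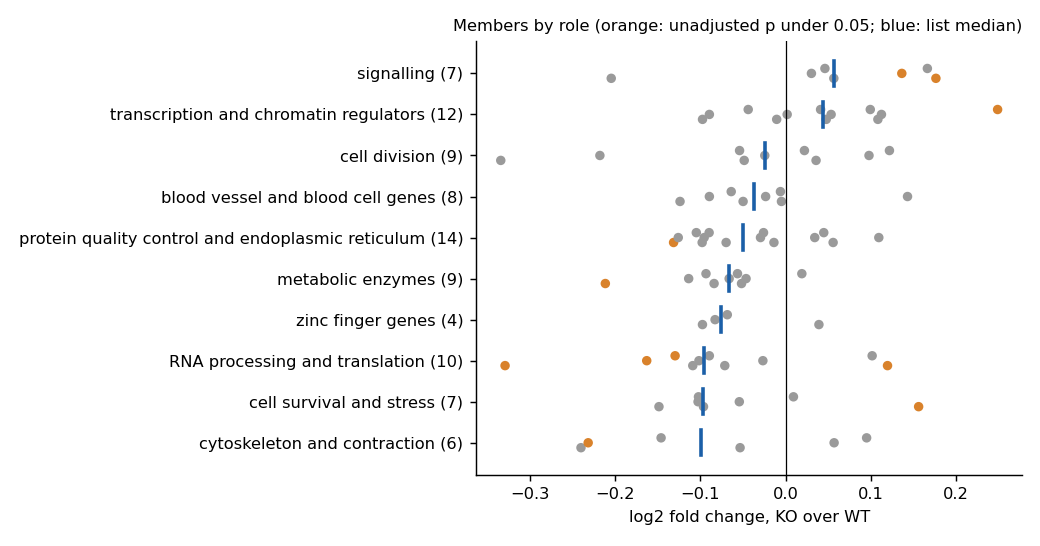
Log2 fold change of KO over WT (horizontal axis) of the tested members of each role list with more than 1 tested member (rows, number of tested members in parentheses). Points are genes, orange where the unadjusted p was under 0.05, and blue lines are list medians, which run from -0.10 for cytoskeleton and contraction to 0.06 for signalling.

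The 72 members in no list held 41 tested genes. Of these 9 had an unadjusted p under 0.05 (17.0% of all tested genes) and 4 had separate ranges (1.88% of all tested genes). Besides those described, the 9 were Manbal, Romo1, Sla2, Slc52a3 and Scand1, all lower in KO. Romo1, which encodes a small protein of the mitochondrial inner membrane, measured 24.1, 27.4, 30.4, 30.4 and 24.8 CPM in KO replicates 1 to 5 and 36.9, 33.7, 26.3, 29.9 and 30.4 CPM in WT replicates 1 to 5. In 2 KO mice it lay below all WT values and in 2 WT mice above all KO values, and the log2 difference was -0.23 ± 0.09 (SE; adjusted p 0.228, edgeR). Manbal measured 33.6 ± 1.31 CPM in KO against 36.3 ± 2.19 in WT mice (mean ± SD, n = 5 per genotype), with a log2 fold change of -0.13 ± 0.05 (SE; adjusted p 0.216, edgeR). Sla2, an adaptor that dampens receptor signals in lymphocytes, measured 34.7 ± 2.27 CPM in KO against 38 ± 3.0 in WT mice (mean ± SD, n = 5 per genotype). The log2 fold change of Sla2 was -0.15 ± 0.06 (SE; adjusted p 0.237, edgeR). The summed T cell list overlapped between genotypes, but 2 of its 5 markers had an unadjusted p under 0.05, against 17.0% of all tested genes. The part of T cells in the Sla2 values was not tested. Slc52a3, a riboflavin transporter gene, measured 22.6 ± 1.03 CPM in KO against 25.1 ± 2.33 in WT mice (mean ± SD, n = 5 per genotype), with a log2 fold change of -0.17 ± 0.07 (SE; adjusted p 0.242, edgeR), and Scand1 measured 62 ± 6.93 CPM in KO against 68.6 ± 7.80 in WT mice (mean ± SD, n = 5 per genotype), with a log2 fold change of -0.18 ± 0.08 (SE; adjusted p 0.285, edgeR). With the offset for exon length the log2 fold change was -0.05 for Manbal, -0.09 for Scand1 and -0.14 for Romo1. It was -0.11 for Sla2 and -0.12 for Slc52a3. None of these genes had an unadjusted p under 0.05 with the offset. Romo1, Sla2 and Scand1 each overlap a gene on the other strand, and whether counting used the strand is not given in the sources used here.

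Levels spanned a wide range. Per kb of exon, the most abundant members were Tgm2 (113 CPM per kb), Myl9 (102), Map1lc3a (97.5), Chmp4b (90.6), Scand1 (86) and Fkbp1a (76.8), as means over 10 mice. The median tested member had 5.46 CPM per kb and the median of all tested genes was 4.58 CPM per kb. The median coefficient of variation between WT mice was 8.82% over the tested members and 9.95% over all tested genes, and between KO mice 7.49% and 9.13%. Among the members it ran in WT mice from 1.25% in Rprd1b to 43.7% in Adig, a gene of fat cells. The adipocyte marker list ranged widely in the same tissue pieces, from 45.7 to 174 CPM in WT and from 63.9 to 154 CPM in KO mice. Adig measured 1.56 ± 0.703 CPM in KO against 1.85 ± 0.807 in WT mice (mean ± SD, n = 5 per genotype), with a log2 fold change of -0.31 ± 0.39 (SE; adjusted p 0.731, edgeR).

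Of the 50 members that were not tested, 13 had 0 counts in all 10 mice and 40 had a mean under 0.1 CPM. All 11 beta-defensin genes, small secreted antimicrobial peptides, were among them: 6 had 0 counts in every mouse, and no mouse had more than 6 counts of any. Bpi, the bactericidal protein gene that gives the BPI fold family its name, also had 0 counts in all 10 mice. Of the untested members 35 lay on the lower-coordinate side and 15 on the other. At this depth no difference between the genotypes could be measured in these genes.

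The ends of the window were set by distance alone. The outermost tested member on the lower-coordinate side was Zfp120, 4.08 Mb from Bpifb1, with 14.6 ± 1.59 CPM in KO against 14.2 ± 0.933 in WT mice (mean ± SD, n = 5 per genotype). On the other side it was Dhx35, at 4.60 Mb, with 12.3 ± 1.47 CPM in KO against 13.2 ± 1.17 in WT mice (mean ± SD, n = 5 per genotype). Beyond the lower end lay Cst3, the cystatin C gene, at 5.32 Mb, with 613 ± 43.2 CPM in KO against 667 ± 51.8 in WT mice (mean ± SD, n = 5 per genotype). The log2 fold change of Cst3 was -0.14 ± 0.06 (SE; adjusted p 0.279, edgeR).

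Sex was the other label that differed. By the sex coefficient of the same edgeR fit 1 of the 127 members passed an adjusted p under 0.05, where 0.583% of all tested genes did, and 14 had an unadjusted p under 0.05, against 15.1% of all tested genes. The 1 gene was Nnat (ENSMUSG00000067786; chr2:157560078-157562522, plus strand), an imprinted gene expressed from the paternal copy that lies within Blcap on the other strand. Nnat was higher in mice labelled male, with 23.3 CPM in the KO male and 23.9 and 18.8 CPM in the WT males. The 7 mice labelled female had 14.3 to 17.5 CPM, so that the sexes as labelled did not overlap. Nnat measured 22 ± 2.79 CPM in males (SD, n = 3) and 15.4 ± 1.11 CPM in females (SD, n = 7), with a log2 fold change of 0.50 ± 0.09 (SE; adjusted p 0.0202, edgeR). Without KO replicate 1, KO replicate 2 or WT replicate 2 it no longer passed (edgeR adjusted p 0.223, 0.0505 and 0.0808). KO replicate 5, labelled female and without the Xist level of the other females, had 14.8 CPM, within the range of the other labelled females. If that mouse were counted as male, the sexes would overlap in Nnat. Without that mouse Nnat passed (edgeR adjusted p 0.0384). Between the genotypes Nnat measured 16.6 ± 3.70 CPM in KO against 18.2 ± 3.62 in WT mice (mean ± SD, n = 5 per genotype), with a log2 fold change of -0.03 ± 0.08 (SE; adjusted p 0.883, edgeR).

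No other member passed for sex. Dhx35 ranged over 9.76 to 12.2 CPM in males and 12.6 to 14.6 CPM in females, with a log2 fold change of -0.29 ± 0.07 (SE; adjusted p 0.0921, edgeR). All mice labelled male were below all labelled female in Dhx35, where KO replicate 5, the library labelled female with low Xist, had 13.4 CPM. If that mouse were counted as male, the sexes would overlap in Dhx35. Bcl2l1 ranged over 128 to 151 CPM in males and 93.2 to 133 CPM in females, which overlap, with a log2 fold change of 0.34 ± 0.09 (SE; adjusted p 0.108, edgeR).

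**Figure D5:**
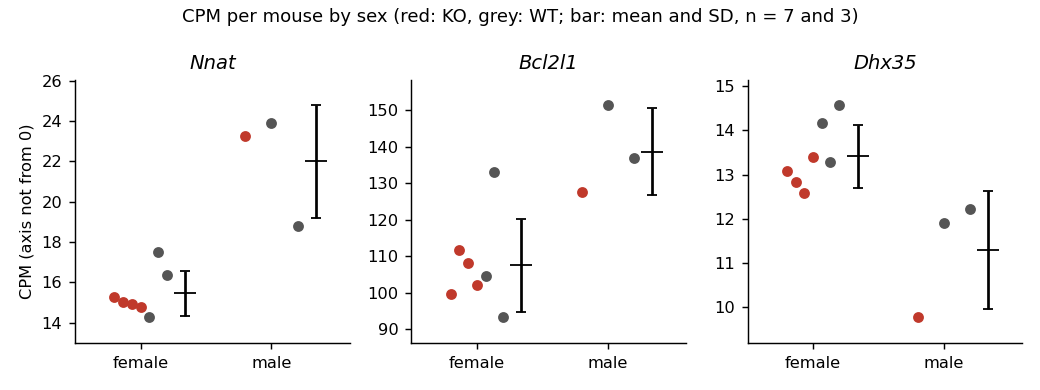
CPM of each mouse (vertical axis, one scale per gene, not from 0) by sex for Nnat, Bcl2l1 and Dhx35, KO in red and WT in grey, with the mean and SD (n = 7 females, 3 males). Sex is as labelled. Nnat is higher in all 3 males than in the 7 females, Dhx35 is lower in all 3 males, and Bcl2l1 overlaps.

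Leaving out single mice did not bring any member past the adjusted test of edgeR, in 10 fits. Without KO replicate 5, 17 members had an unadjusted p under 0.05 (13.4%, against 13.2% of all tested genes) and 6 had separate ranges, where 2.57% of all tested genes did. The count of members with an unadjusted p under 0.05 was lowest, at 11 (8.66%), without WT replicate 1 and without WT replicate 5. The share of all tested genes was 10.3% without WT replicate 1 and 16.1% without WT replicate 5. Nothing in the labels says whether the mice of a group came from separate litters, so the p values measure only the spread between these mice.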

How the data were processed

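RNA from the right middle lung lobe of 10 mice was sequenced as stranded mRNA libraries, per the labels' protocols. The values are estimated counts per gene, deposited by the authors; 30.1% of the non-zero values were not whole (tolerance 0.01), so all were rounded to whole numbers. FastQC, MultiQC, STAR 2.6.0 and Salmon 0.9.1, with mm10 and GRCm38, are listed per the submitters' processing notes. The annotation, the filters and the use of strand in counting are not given in the sources used here. Of 47333 gene IDs 47281 matched GENCODE M21; the other 52 held 0.00668% of the counts.

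Genes were filtered with filterByExpr (minimum count 10, minimum total 15), which left 18024. They were fitted with edgeR 4.0.16 (R 4.3.3) by TMM scaling and robust quasi-likelihood tests on genotype with sex as a covariate, and p values were adjusted by Benjamini-Hochberg over all of them. CPM of genes are scaled to the TMM-adjusted library size of the tested genes, and the floor to the library total. Alternatives were DESeq2 1.42.0, limma 3.58.1 (voom), other scalings, filters, covariates and windows, and each mouse left out. The fit was tested on simulated data.

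The members and lists were chosen with earlier results of these data known. Genes named in the text were the 5 nearest tested members on each side, those with separate ranges, the 12 with the smallest p, the tested genes on either side of each window end, the 6 most abundant per kb, the 4 with the smallest p for sex, and in each role list the gene with the smallest p and the most abundant one, beside Bpifb1 and Bpifb5. Others with an unadjusted p under 0.05, Gm14226, Gins1, Adig, Rprd1b, Bpi, Xist, Sun5, Efcab8 and the zinc finger genes were added after their values were seen. Some genes that the rule names are not reported here.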

Additional observations from a re-analysis of the deposited data

Results flagged for a closer look

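In 4 of 82 sets of 5 mice, where chance gives about 4.1, the highest or lowest mouse stood apart from the other 4 by more than 0.71 of the range. Dhx35 was 9.763 CPM in KO replicate 1, with 12.58 to 13.39 CPM in the other KO mice. Fkbp1a was 268 CPM in KO replicate 5, with 293.9 to 302 CPM in the others. Nnat was 23.27 CPM in KO replicate 1, the only mouse of its group labelled male, with 14.78 to 15.26 CPM in the others. Rbl1 was 18.44 CPM in WT replicate 2, with 15.33 to 16.23 CPM in the other WT mice.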

How the results depend on the processing

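No paired analysis was possible because the labels give the mice of the genotypes no shared replicate numbers. At an adjusted p under 0.05 edgeR called 4 of all genes tested, and the count was 346 by DESeq2, 2 by limma-voom, 50 with no filter on low counts, 57 at an adjusted p under 0.1 and 2 to 18 with single mice left out. Of the members 0 passed by edgeR, where 20 had an unadjusted p under 0.05, 2 by DESeq2 and 0 in every fit without a mouse. Members with an unadjusted p under 0.05 numbered 10 with no covariate (12.7% of all genes tested). In a window of 2.5 Mb they numbered 13 of 81, against 17.0% of all tested genes. They numbered 12 with the exon-length offset (12.9% of all genes). Without single mice they numbered 11 to 21, where 10.3% to 19.2% of all genes had such a p. Members with separate ranges numbered 15 in the mice labelled female alone, KO replicate 5 among them (12.4% of all genes tested there). They numbered 5 to 9 without single mice, the highest being without WT replicate 3. There 5.90% of all genes tested had separate ranges, against 1.88% with all mice. The median absolute log2 fold change was 0.0580 with the exon-length offset and 0.0767 to 0.108 without single mice. For sex, 3 members passed by DESeq2, 3 at an adjusted p under 0.1, 0 in the window of 2.5 Mb and 0 to 2 without single mice. The cause of these shifts was not tested, except that the smaller window holds fewer genes.

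Of 778 values of 41 named genes under the alternatives 751 kept their direction and their side of the threshold. Bpifb1 lost its adjusted call in 9, with a log2 fold change of -6.42 in labelled females alone and -6.72 by limma-voom. Signs turned in 8 genes with values near 0. In labelled females alone Zfp120 was -0.0228 and Cst7 0.0292. With the exon-length offset Asxl1 was -0.0106, Mapre1 -0.0405, E2f1 0.0134 and Nnat 0.0421. With single mice left out the log2 fold change ran in Zfp120 from -0.0224 to 0.0864, Cst7 from -0.261 to 0.0295, Commd7 from -0.0446 to 0.011, Mapre1 from -0.00649 to 0.0543, E2f1 from -0.0582 to 0.00231, Nnat from -0.0984 to 0.0228 and Bcl2l1 from -0.175 to 0.00243. That of Bpifb1 ran from -6.97 to -6.35.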
